A study of Mus musculus with 6 samples.

Results

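The 9 genes described here mark B lymphocytes of the follicles in the colon wall: Ms4a1, Cd79a, Cd79b, Cr2, Fcer2a, Blk, Pax5, Cd22 and Spib. They were chosen by symbol, and all 9 were found among the 19844 genes of the table. The colon holds solitary follicles and larger patches in which resting B cells gather around follicular dendritic cells, drawn there by the chemokine CXCL13 acting on the receptor CXCR5. B cells read antigen through a surface immunoglobulin that signals through the CD79a and CD79b chains, and they lose this program when they become plasma cells.

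The libraries came from distal colon of C57BL6 mice on day 17 of treatment with azoxymethane, a carcinogen, and dextran sulfate sodium, which injures the colon lining. There were 3 wild-type mice and 3 mice labelled as knockouts for ChREBP, the glucose-sensing transcription factor that Mlxipl encodes, and both groups received AOM/DSS. The age of the mice, the deleted part of the gene and any cell type restriction of the deletion are not stated in the labels. The values are FPKM, fragment counts scaled to transcript length and library size, so levels of different genes can be set side by side. Means are given ± SD over the 3 mice of a group, in FPKM. A log2 fold change is the knockout mean minus the wild-type mean of log2(FPKM + 1), a scale on which changes of low genes come out too small.

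The read depth behind the values, estimated from short genes, was between 17700000 and 18425000 reads per library. Mlxipl was lower in each of the libraries labelled knockout (3.40 to 5.66 FPKM) than in any wild-type library (5.84 to 7.49 FPKM), but its transcript was still present. Knockout values lay wholly below wild-type values for 4.14% of tested genes. Mlxipl was not called by limma (log2 fold change -0.48, adjusted p = 0.9995). The labels call all 6 mice female, whereas the Y-linked gene Ddx3y read 9.51 to 12.11 FPKM and Xist 0.02 to 0.04 FPKM in all 6. At an adjusted p under 0.05 limma called 2 of the 13247 tested genes, a share of 0.0151%. For the B cell genes 1 library stood apart: wild-type replicate 3, in which their geometric mean was 1.77 FPKM, against 7.38 and 11.7 FPKM in wild-type replicates 1 and 2. Differences between genotypes, spreads and interval widths are therefore given with and without it.

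Upstream sequences are shown because the 9 genes moved together across libraries and because their regulation in B cells is well studied. The set of RefSeq upstream windows used, from the GRCm38.p6 build, held 6 of the 9 genes, with 8 starts. Of these, 3 windows of 250 bases before the outermost start of the gene are printed, on the strand of the gene. Capitals mark matches, on either strand, to CAAGGGAAT (the site of the B cell factor EBF1 known from the Cd79a promoter), CCCNNGGG (the core of the EBF site), AGGAAGT (bound by Ets factors), GAGGAA (bound by the Ets factors PU.1 and Spi-B), ATTTGCAT (the octamer) and TATAAA (the TATA box). These letters were chosen with the sequences in view. The Cd79a window is chr7:24897247-24897496 on the plus strand, the Fcer2a window chr8:3694175-3694424 and the Pax5 window chr4:44710695-44710944, both on the minus strand.
Cd79a: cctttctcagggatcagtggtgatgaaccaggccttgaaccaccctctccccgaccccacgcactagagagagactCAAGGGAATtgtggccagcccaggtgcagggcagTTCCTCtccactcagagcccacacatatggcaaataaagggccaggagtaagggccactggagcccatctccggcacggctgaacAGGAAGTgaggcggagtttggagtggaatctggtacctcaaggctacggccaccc
Fcer2a: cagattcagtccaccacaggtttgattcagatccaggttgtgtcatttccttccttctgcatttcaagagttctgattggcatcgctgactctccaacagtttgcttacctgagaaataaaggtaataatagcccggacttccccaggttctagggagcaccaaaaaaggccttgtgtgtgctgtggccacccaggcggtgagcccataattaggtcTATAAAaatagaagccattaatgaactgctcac
Pax5: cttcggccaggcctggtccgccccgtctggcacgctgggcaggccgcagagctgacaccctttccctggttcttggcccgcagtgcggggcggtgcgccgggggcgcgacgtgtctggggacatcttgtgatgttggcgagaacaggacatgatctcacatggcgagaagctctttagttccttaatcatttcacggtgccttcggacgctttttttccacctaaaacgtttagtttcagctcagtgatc

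The Cd79a window, upstream of the B cell gene with the highest level, held 3 of these matches. CAAGGGAAT lay at bases 174 to 166 before the start, the complement of GAGGAA at bases 140 to 135 and AGGAAGT at bases 55 to 49. Of all 32851 windows of this length in the set, 0.225% held CAAGGGAAT, 23.3% held GAGGAA and 7.69% held AGGAAGT. The first Fcer2a window held TATAAA 33 to 28 bases before the start. At any position and on either strand, 12.4% of all windows held it. The Pax5 window held none of the letters searched. CCCNNGGG was found in the windows of Cd22 and Spib, not printed here, and in 11.8% of all windows. ATTTGCAT was in 1.60% of all windows and in none of the 8 of these genes, which says only that these letters are not in these windows. A match is a description of the sequence, not evidence of binding.

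Cd79a and Cd79b, the signalling chains of the B cell receptor, had the highest levels of the 9 genes in each of the 6 libraries. Cd79a (NCBI gene 12518) read 42.15, 59.75 and 11.23 FPKM in wild-type replicates 1 to 3 and 36.50, 34.87 and 28.19 FPKM in knockout replicates 1 to 3. The wild-type libraries were both the highest and the lowest, with the knockout libraries between them. Its means were 37.7 ± 24.6 FPKM in wild type and 33.2 ± 4.40 FPKM in knockout. The knockout mean FPKM was thus the lower one, whereas the log2 fold change, a difference of mean logs, was 0.10 (SE 0.51, limma adjusted p = 0.9995). Cd79b (NCBI gene 15985) read 13.71, 20.27 and 5.24 FPKM in wild type and 14.79, 11.81 and 9.76 FPKM in knockout, and its log2 fold change was 0.05 (SE 0.40). Its groups overlapped in the same way.

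Blk, the Src-family kinase that phosphorylates the receptor chains, was among the lowest of the 9. Blk (NCBI gene 12143) read 2.79, 4.49 and 0.59 FPKM in wild type and 3.74, 2.58 and 2.10 FPKM in knockout. In wild-type replicate 3 the value corresponds to about 24 reads, from the estimated depth and the transcript's length in GENCODE M21, with a counting error near 20.4%. Cd22 (NCBI gene 12483), a sialic acid-binding lectin that damps receptor signals, read 7.52, 14.20 and 2.17 FPKM in wild type and 8.83, 6.60 and 5.69 FPKM in knockout. The low value of replicate 3 was thus shared by genes of the activating and the inhibitory arm.

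Ms4a1 (NCBI gene 12482) encodes CD20, a surface protein of mature B cells that plasma cells lack. It read 10.09, 15.44 and 1.60 FPKM in wild type and 9.62, 5.37 and 5.48 FPKM in knockout. Its ratio of 9.65 between the highest and the lowest wild-type library was the widest of the 9. Cr2 (NCBI gene 12902) encodes the complement receptors CD21 and CD35, found on B cells and on follicular dendritic cells. It read 3.31, 4.65 and 0.52 FPKM in wild type and 3.95, 2.12 and 2.35 FPKM in knockout. Fcer2a (NCBI gene 14128), the low-affinity IgE receptor CD23 of follicular B cells, read 5.68, 10.77 and 1.42 FPKM in wild type and 7.72, 6.26 and 4.78 FPKM in knockout. For these surface receptors too, every knockout value lay inside the wild-type range. The gene bounds of 4930526L06Rik, Trappc5 and 5730488B01Rik overlap those of Ms4a1, Fcer2a and Pax5 in the GRCm38.p6 annotation. No strand-marking step is described for these libraries, so reads from a shared stretch could be assigned to either gene.

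Pax5 and Spib encode transcription factors. Pax5 (NCBI gene 18507), which holds B cells to their lineage, read 3.21, 4.69 and 0.76 FPKM in wild type and 2.75, 1.97 and 2.47 FPKM in knockout. Spib (NCBI gene 272382), the Ets factor Spi-B, is expressed in B cells and also in M cells of the epithelium over follicles and in plasmacytoid dendritic cells. It read 8.82, 14.32 and 2.49 FPKM in wild type and 8.56, 6.65 and 7.64 FPKM in knockout, so the highest and the lowest library were those of the other 8 genes.

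**Figure D1:**
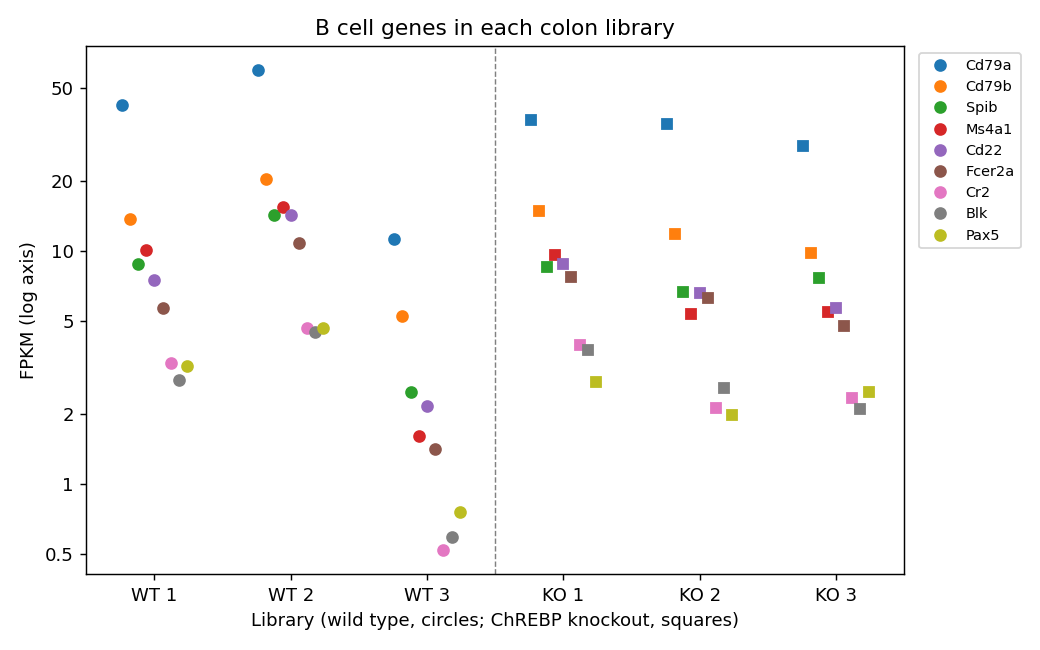
FPKM of the 9 B cell genes (log axis) in each of the 3 wild-type (circles) and 3 ChREBP knockout (squares) libraries, 1 point per gene and library. For each gene wild-type replicate 2 is the highest point and wild-type replicate 3 the lowest, as for Cd79a at 59.75 and 11.23 FPKM.

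All 9 genes had their highest value in wild-type replicate 2 and their lowest in wild-type replicate 3, an order shared by 520 of 13247 tested genes (3.93%). It follows from this order that all 9 had every knockout value inside the wild-type range, as did 13.5% of tested genes. Knockout replicate 1 was the highest knockout library for all 9, as for 31.4% of tested genes. The order of knockout replicates 2 and 3 differed between genes: replicate 3 was lower for Cd79a, Cd79b, Fcer2a, Blk and Cd22, and replicate 2 for Ms4a1, Cr2, Pax5 and Spib. Relative to wild-type replicate 2, the geometric mean of the 9 genes was 63.3% in wild-type replicate 1 and 15.1% in replicate 3, and 67.9%, 49.0% and 46.2% in knockout replicates 1 to 3. In bulk tissue, fewer B cells and less RNA per cell cannot be told apart.

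The spread within wild type was wide for all 9 genes, and most of it came from replicate 3. The ratio of the highest to the lowest wild-type library ran from 3.87 for Cd79b to 9.65 for Ms4a1, with a median of 6.54, where the median tested gene had 1.22. Among tested genes above 0 in all libraries, 0.691% had a ratio as large as that of Cd79b and 0.0912% one as large as that of Ms4a1. Within the knockout group the same ratio lay between 1.29 for Spib and 1.86 for Cr2, with a median of 1.55 against 1.28 for all tested genes. The coefficient of variation had a median of 74.5% in wild type and 22.9% in knockout for the 9 genes, and of 10.3% and 12.8% for all tested genes. Without wild-type replicate 3 the ratio of the other pair of wild-type libraries lay between 1.40 for Cr2 and 1.90 for Fcer2a, with a median of 1.53 against 1.09 for all tested genes. The smallest of these 9 ratios was reached by 7.07% of tested genes above 0 in all libraries. This ratio is over a pair of libraries and the knockout ratio over 3, so the values are not like for like. Whether the spread differs between genotypes was not tested.

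Knockout against wild type, none of the 9 genes was called by limma, at either the adjusted threshold or an unadjusted p under 0.05 (0 of 9 each, beside 0.0151% and 3.4% of all tested genes). All 9 passed the filter on low values. At those background shares a count of 0 among 9 says little about these genes. Of the 9, 7 had positive and 2 negative log2 fold changes (Ms4a1 at -0.04 and Pax5 at -0.04), with a median of 0.09 against 0.01 for all tested genes. On the FPKM scale the tally turned: the knockout mean was below the wild-type mean for 7 genes and above it for Fcer2a and Blk only. The largest was that of Fcer2a, at 0.31 (SE 0.50, 95% interval -0.84 to 1.47, limma adjusted p = 0.9995). The exact two-sided permutation test over the 6 libraries, which cannot go below 0.1 here, gave p between 0.8 and 1 for the 9 genes. No gene had groups that did not overlap, where 8.67% of tested genes did.

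The intervals show which sizes of change are compatible with these libraries. The distance from the estimate to either end of the 95% interval was between 0.89 for Pax5 and 1.40 for Ms4a1 on the log2 scale, with a median of 1.07, against 0.31 for the median tested gene. For Cd79a the interval of -1.09 to 1.28 spans FPKM + 1 from 0.471 to 2.43 times the wild-type level. Differences anywhere inside that span, in either direction, are compatible with the 6 libraries at this spread between mice. Much of the width, but not all, came from wild-type replicate 3. Without it the distance to either end was between 0.43 (Cd79a) and 0.64 (Fcer2a), with a median of 0.55. The SE of Cd79a was then 0.18 in place of 0.51, where the median SE of all tested genes was 0.14.

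**Figure D2:**
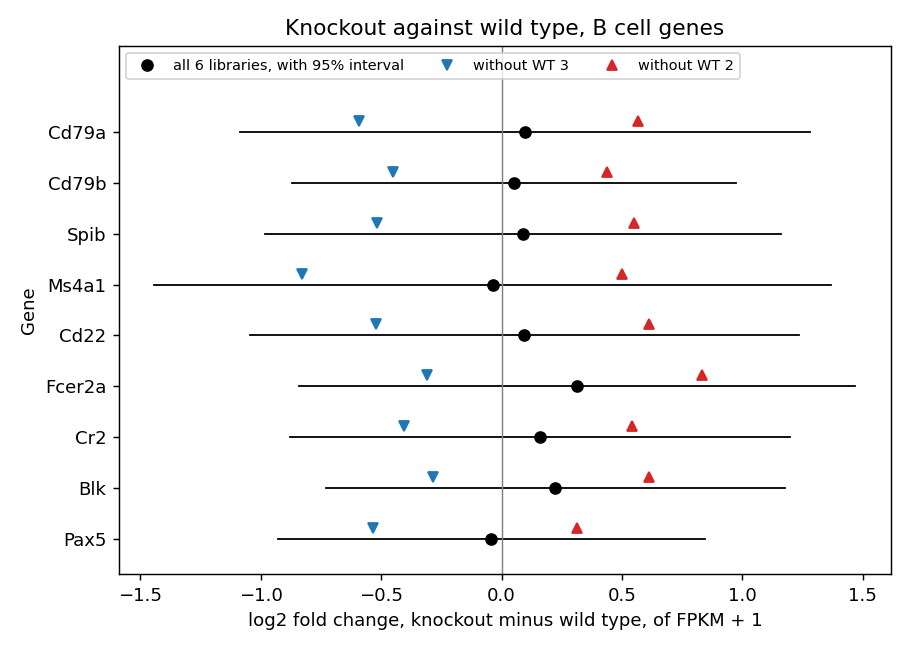
Log2 fold change of FPKM + 1, knockout minus wild type, for each B cell gene (black points with limma 95% intervals), and the same without wild-type replicate 3 (blue) or replicate 2 (red). All blue points lie below 0, all red points above 0, and all intervals of the 6-library comparison span 0.

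The sign of the difference rested on single libraries. Without wild-type replicate 3 all 9 log2 fold changes were negative, from -0.83 for Ms4a1 to -0.28 for Blk, with a median of -0.52, where 49.6% of all tested genes were negative. The knockout values of 4 genes then lay wholly below the wild-type values (Ms4a1, Cd79a, Pax5 and Spib), as for 8.45% of tested genes, and limma called 0 of the 9 (adjusted p = 0.9999 for each), beside 0% of all tested genes. Unadjusted limma p was under 0.05 for the same 4 genes, from 0.0137 for Cd79a to 0.0406 for Spib, beside 3.46% of all tested genes. That library was left out because its values stood apart, so these p are a description. Without wild-type replicate 2 all 9 were positive, from 0.31 for Pax5 to 0.83 for Fcer2a, with a median of 0.55, where 54.1% of all tested genes were positive. Without knockout replicate 1, the highest knockout library, 4 were positive and 5 negative, with a median of -0.04. All 9 were positive without wild-type replicate 1 (median 0.23) or knockout replicate 2 (median 0.13), and 8 without knockout replicate 3 (median 0.21). The 9 values of a library come from the same RNA sample, so their signs are not independent of each other.

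Levels of the 9 genes relative to each other varied less than their levels. In this comparison, added after the values were seen, the log2 FPKM of a gene was taken minus the mean log2 FPKM of the other 8 in the same library. For Ms4a1 the range over the 6 libraries was 3.27 on the log2 FPKM scale and 0.67 for the relative level, and for Cd22 it was 2.71 and 0.30. Without wild-type replicate 3 these ranges were 1.52 and 0.61 for Ms4a1 and 1.32 and 0.29 for Cd22. Cd79b had the widest relative range, 0.87, with 1.76 in wild-type replicate 3 and 0.90 to 1.18 in the other libraries. In that library the 9 genes were thus low by unequal amounts, the value in replicate 2 being 3.87 times that in replicate 3 for Cd79b and 9.65 times for Ms4a1.

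Of the 9 genes, 1 had relative levels that did not overlap between genotypes. This was Blk, at -1.58, -1.55 and -1.78 in wild type and at -1.22, -1.29 and -1.53 in knockout (exact two-sided permutation p = 0.1, the smallest this design allows). A share of 1 in 9 is near the 8.67% of tested genes whose FPKM did not overlap, and the nearest libraries, wild-type replicate 2 and knockout replicate 3, lay closer together than the counting errors of Blk there (7.41% and 10.7%). The other 8 genes gave exact permutation p between 0.2 and 0.9.

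**Figure D3:**
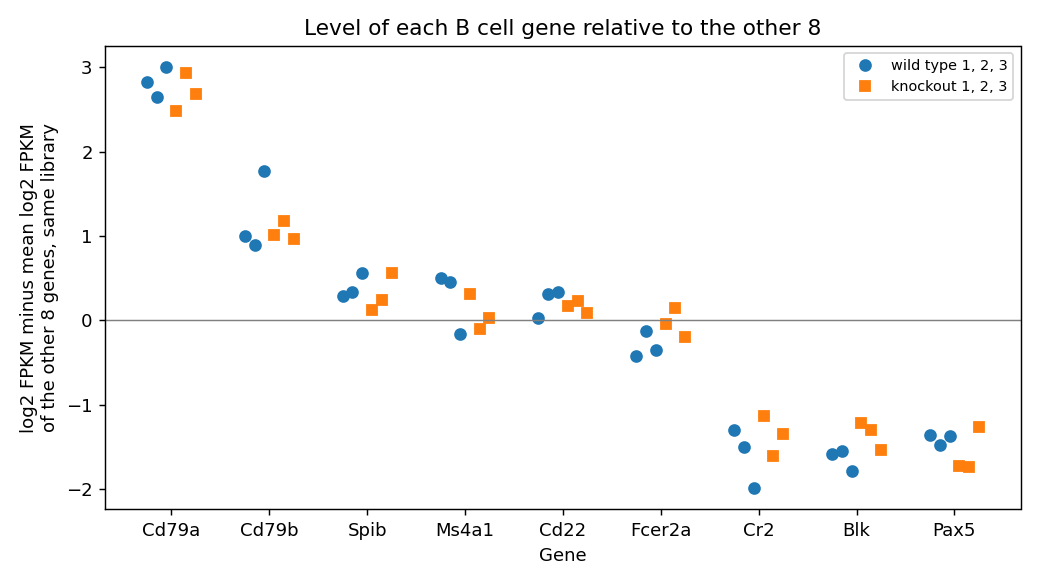
Log2 FPKM of each B cell gene minus the mean of the other 8 in the same library, for 3 wild-type (circles) and 3 knockout (squares) libraries, replicates 1 to 3 from left to right. The points of a gene lie within 0.87 of each other, and the groups overlap for all genes but Blk.

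As a description over 6 libraries, each gene's log2(FPKM + 1) had a Pearson r between 0.970 (Pax5) and 0.993 (Cd22) with the mean z-score of the other 8, and a Spearman rho between 0.886 and 1. Without the libraries at both ends, wild-type replicates 2 and 3, r over the remaining 4 lay between 0.639 (Pax5) and 0.949 (Ms4a1). Among 13238 other tested genes, 264 (1.99%) had an r of 0.9 or more with the mean of the 9.

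The 10 genes most like the 9 by that r included further B cell genes. They were Relt, Tnfrsf13c, Cd37, Pitpnm2, Cxcl13, Btla, Pusl1, Cd180, Chst3 and Ptpn6, with r from 0.986 to 0.993. Tnfrsf13c, the receptor for the B cell survival factor BAFF, read 5.03, 8.93 and 1.27 FPKM in wild type and 6.20, 3.66 and 3.75 FPKM in knockout. Cd180, a Toll-like receptor homolog of B cells, read 3.57, 4.66 and 1.22 FPKM and 3.73, 3.06 and 2.43 FPKM. Cxcl13, the follicle chemokine, read 21.50, 36.65 and 5.80 FPKM and 29.54, 16.88 and 16.48 FPKM. Not all were wide in range: Pusl1, a pseudouridine synthase homolog, stayed between 3.83 and 4.86 FPKM.

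The wider B cell lists had the same library order to different degrees. Among other B cell surface genes 23 of 24 were tested, 14 with positive and 9 with negative log2 fold changes (median 0.07), and 17 had wild-type replicate 2 highest and replicate 3 lowest. The 5 highest genes of that list, apart from Cd37 (5.85 to 26.37 FPKM), did not follow: Cd24a read 171 to 243 FPKM, Cd38 68.5 to 113, Fcgr2b 11.9 to 16.4 and Cd200 11.8 to 14.9. Those 4 are also expressed by other cells of the colon. Cd24a had an unadjusted limma p of 0.0334, with a log2 fold change of -0.28 (adjusted p = 0.9995).

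Many genes that carry the receptor's signal are also expressed by other cells. Of 19 tested receptor signalling genes 8 were positive and 11 negative (median -0.01), and 8 had the library order of the 9. Blnk, the adaptor that links the receptor to phospholipase C, read 42.6 FPKM in wild-type replicate 3 and 49.98 to 64.8 in the others, and Syk, the kinase recruited by the CD79 chains, 16.97 and 19.5 to 31.1. Both were lowest in wild-type replicate 3 but highest in knockout replicate 1, so neither had the full order. Bcl10 (26.6 to 31.4 FPKM), Grb2 (43.7 to 49.5) and Cd81 (106 to 114), which most cells express, did not show the order.

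Of 13 B cell transcription factors 1 was positive and 12 negative (median -0.15), and 6 had the order. Pou2af1, the octamer coactivator of B and plasma cells, read 16.33, 26.20 and 8.35 FPKM in wild type and 14.29, 13.52 and 7.63 FPKM in knockout. Irf8 read 25.6 to 37.0 FPKM, Tcf3 13.9 to 17.2 and Foxo1 10.4 to 13.1. The positive one, Id3, an inhibitor of E proteins, read 33.5 ± 1.90 and 43.4 ± 7.41 FPKM (log2 fold change 0.35, limma adjusted p = 0.9995).

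Germinal centre genes, which mark B cells dividing and mutating their receptors in the follicle, were low. Of 12 genes 8 were tested, 1 positive and 7 negative (median -0.12), and 6 had the order. The highest genes of the list, also expressed outside germinal centres, were Bcl6 (6.31 to 8.32 FPKM), Fas (4.90 to 8.83), S1pr2 (2.98 to 4.60), Il21r (2.15 to 6.29) and Klhl6 (1.41 to 4.69).

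Genes of follicle stroma and lymphoid chemokines had 11 positive and 7 negative members among 18 tested (median 0.06), and 10 had the order. Clu and Mfge8, made by follicular dendritic cells and by other cells, read 80.2, 135 and 37.0 FPKM and 84.4, 121 and 45.3 FPKM in wild type, and 55.9 to 98.8 and 82.2 to 98.1 FPKM in knockout. Ccl21a, the lymphatic chemokine, read 73.2 to 84.4 FPKM with wild-type replicate 1 the lowest, Ltbr 50.1 to 60.0 and Tnfrsf11a 23.5 to 31.5.

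Without wild-type replicate 3 the median log2 fold change was -0.33 for the surface genes, -0.20 for the signalling genes, -0.30 for the transcription factors, -0.41 for the germinal centre genes and -0.18 for the stroma list, against 0.00 over all tested genes. No gene of these lists was called by limma with all 6 libraries, and unadjusted p was under 0.05 for Cd24a and Id3.

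Spib is shared with M cells and plasmacytoid dendritic cells, so their markers were set beside it. The M cell receptor Gp2 read 0.03, 0.20 and 6.17 FPKM in wild type and 0.00, 0.03 and 0.51 FPKM in knockout, so it was highest where Spib was lowest. It reached 1 FPKM in wild-type replicate 3 only and did not pass the filter, so this rests on a single value. Of 8 tested M cell list genes 0 had the library order of the 9, and 1, Marcksl1, had its lowest value in wild-type replicate 3. The highest of them, Pglyrp1 (286 to 477 FPKM), Marcksl1 (28.4 to 62.1), Anxa5 (36.4 to 53.5), Ccl20 (3.23 to 15.9) and Tnfaip2 (4.07 to 5.41), are not limited to M cells. Siglech, which marks plasmacytoid dendritic cells, stayed between 0.19 and 0.45 FPKM, and Klk1 (760 to 1099), Irf7 (38.5 to 74.9) and Bst2 (14.7 to 28.2), from the same list, are expressed by other colon cells.

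Wild-type replicate 3 did not stand apart for all cell types. The summed FPKM of the 9 genes was 26.0 there and 97.3 and 149 in the other wild-type libraries, and 68.5 to 96.5 in knockout. The epithelial list (10 of 10 tested, Lgals4, Krt8 and Krt19 highest) summed to 7938 to 8343 FPKM in wild type, with replicate 3 the lowest, and 7650 to 9002 in knockout. The smooth muscle list (8 of 8, Tagln, Actg2 and Acta2 highest) summed to 2653 to 3628 and 2834 to 4331, with replicate 3 in between. Pan-leukocyte genes (8 of 8, Cd52, Laptm5 and Coro1a highest) summed to 145 in replicate 3 and 201 and 256 in the other wild types, and to 141 to 212 in knockout. Their part in the result was not tested, and none of the 9 B cell genes was at 0 in any library.

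Other immune lists followed the order of the 9 in part or not at all. The macrophage list (10 of 11 tested, Lyz2, C1qa and C1qb highest) summed to 501 FPKM in wild-type replicate 3 against 356 and 399 in the other wild types, and to 317 to 541 in knockout. T cell genes (11 of 16 tested, Thy1, Cd2 and Cd4 highest) summed to 50.5 to 61.6 in wild type and 50.2 to 56.6 in knockout, and 2 of the 11 had the order of the 9. Thy1, which stromal cells also express, made up a large part of these sums. Without it, a sum taken after the values were seen, the list came to 29.7, 36.8 and 24.8 FPKM in wild-type replicates 1 to 3 and 25.7, 30.8 and 20.3 in knockout, with wild-type replicate 2 the highest of the 6 and knockout replicate 3 the lowest. Neutrophil genes (5 of 7 tested) summed to 7.28 to 9.72 and 6.92 to 20.7, highest in knockout replicate 1, where S100a9 read 6.55 FPKM against 0.88 to 1.99 elsewhere. Csf3r (1.06 to 2.58) and Cxcr2 (2.24 to 3.43) were less spread.

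**Figure D4:**
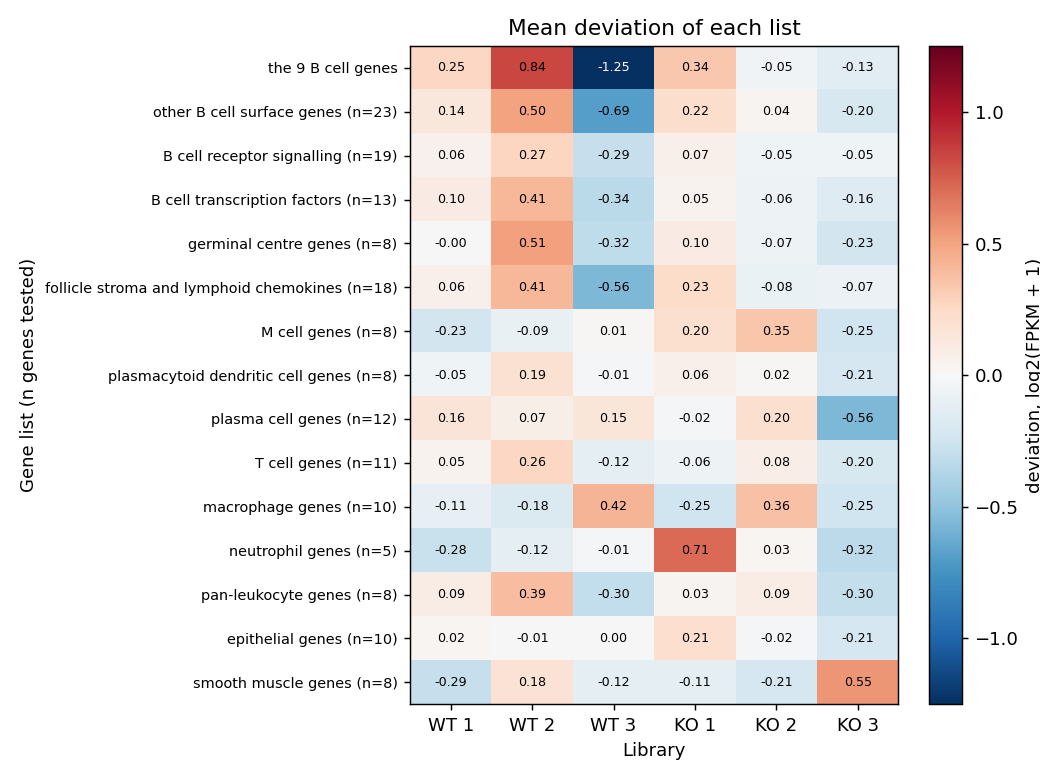
Mean over the tested genes of each list of log2(FPKM + 1) minus the gene's mean over 6 libraries, for wild-type (WT) and knockout (KO) libraries. The 9 B cell genes are at 0.84 in wild-type replicate 2 and -1.25 in replicate 3, and the B cell and follicle lists have the same signs there, as do the T cell (0.26 and -0.12), pan-leukocyte (0.39 and -0.30), smooth muscle (0.18 and -0.12) and plasmacytoid dendritic cell lists (0.19 and -0.01). The macrophage (0.42) and plasma cell (0.15) lists are above 0 in wild-type replicate 3, and the M cell (0.014) and epithelial (0.005) lists barely so.

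Plasma cells, the antibody-secreting descendants of B cells, did not share the order. None of 12 tested plasma cell genes had wild-type replicate 2 highest and replicate 3 lowest, and 2 were positive and 10 negative (median -0.27). Jchain, which joins IgA into dimers, read 305, 286 and 343 FPKM in wild type and 173, 361 and 111 FPKM in knockout. Its log2 fold change was -0.70 (SE 0.37, limma adjusted p = 0.9995), and it was highest in knockout replicate 2 and lowest in knockout replicate 3. Txndc5 (90.1 to 138 FPKM) and the IgA transporter gene Pigr of the epithelium (1136 to 1319) were the other high genes of that list.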

How the data were processed

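The 6 libraries were grouped by the genotype label, with the replicate number from the title. The deposited table gives FPKM, as computed by the authors, for 19844 genes. HISAT2, RSEM and mm39 are named in the submitters' processing notes, and how the values were filtered or scaled further was not stated there. Per the labels' protocols, poly-A RNA was selected and copied with random primers.

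The 13247 genes that reached 1 FPKM in 3 or more libraries were tested on log2(FPKM + 1) with limma 3.58.1 in R 4.3.3 (eBayes with trend, two-sided, genotype only), adjusted by Benjamini-Hochberg and called under 0.05. The fit was also run on simulated data with noise drawn independently for each gene and library. That run therefore does not cover shifts that genes of the same library share. Exact permutation tests used the 6 values of a gene. Reads per library were estimated from short genes of 150 bases or less. The depth was chosen, within a preset range, to bring the most values within 0.05 of a whole number of reads. At the chosen depths 83.2% to 88.7% of the values used lay that close, so this share is no separate check. Reads were not recovered for other genes, so no count model was run. Tables were made with Python 3.11.15 and pandas 2.3.3.

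The 9 genes and the lists were chosen with earlier results of these data known. The named genes were all 9, up to 5 of highest mean and any with unadjusted p under 0.05 in B cell, follicle and M cell lists, up to 3 of highest mean in the other lists, and the 10 of highest r with the 9. Alternatives changed the pseudocount, filter, scaling and variance model, added the replicate block or left out each library. Same-numbered libraries gave correlations of deviations of 0.27, -0.10 and 0.06, so the numbers were not taken as pairs. Replicates are labelled as separate samples of 3 mice per group.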

Additional observations from a re-analysis of the deposited data

How the results depend on the processing

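No setting called any of the 9 genes (0 in each of 17 alternatives, smallest adjusted p = 0.936 in limma, for Ms4a1 with array weights), but the sign of their differences was not stable. With array weights all 9 log2 fold changes were negative, and the 7 that reversed were Cd79a at -0.38, Cd79b at -0.32, Cr2 at -0.21, Fcer2a at -0.14, Blk at -0.15, Cd22 at -0.34 and Spib at -0.27. Ms4a1 turned positive with a pseudocount of 0.1 (0.0467) or 0.5 (0.00101), and Pax5 with a pseudocount of 0.1 (0.0510). The 3 scalings, the filters, the models without trend or with a robust prior and the replicate block, at -0.04 for Ms4a1, changed no sign of a gene they could test. The filter at a mean of 5 FPKM left out Cr2, Blk and Pax5. Leaving out 1 library at a time gave ranges from -0.83 to 0.50 for Ms4a1, -0.59 to 0.57 for Cd79a, -0.45 to 0.44 for Cd79b, -0.41 to 0.54 for Cr2, -0.31 to 0.83 for Fcer2a, -0.28 to 0.61 for Blk, -0.53 to 0.31 for Pax5, -0.52 to 0.61 for Cd22 and -0.52 to 0.55 for Spib, the lowest without wild-type replicate 3 and the highest without wild-type replicate 2.

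Over all genes limma called 2, against 0 with a mean of 5 FPKM or with the replicate block (316 and 504 at an unadjusted p under 0.05), and between 0 and 1 without 1 library. The same-numbered libraries were not taken as pairs, and whether they were pairs is not known. The count of the 9 genes without overlap went from 0 to between 0 and 4, with 4 only without wild-type replicate 3. That library also turned the sign of the median of the surface, stroma and macrophage lists (0.05 for the last, from -0.12). The cause was not tested. Depth limits the lowest values, such as Blk at about 24 reads in wild-type replicate 3.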

Other observations

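A non-coding gene that overlaps Ms4a1 did not follow it. 4930526L06Rik (NCBI gene 75138) read 1.17, 1.20 and 1.11 FPKM in wild type and 0.72, 0.71 and 0.39 FPKM in knockout. Its groups did not overlap, as for 8.67% of tested genes. Its wild-type values were just above the 1 FPKM of the filter and its knockout values below it. It thus passed the filter through the wild-type group alone, which fixed the lack of overlap. That lack of overlap is therefore no result, and its fold change is a description only. Its log2 fold change was -0.43 (SE 0.14, limma adjusted p = 0.9995), while Ms4a1 read 15.44 FPKM in wild-type replicate 2 and 1.60 in replicate 3. 4930526L06Rik was looked at after the values were seen and because of its position alone. Values of 5730488B01Rik, which overlaps Pax5, are not reported here. Trappc5, a vesicle transport gene that overlaps Fcer2a, read 13.07, 12.51 and 9.89 FPKM in wild type and 13.19, 14.56 and 13.75 FPKM in knockout. Its lowest library was wild-type replicate 3, as for Fcer2a and for 22.6% of tested genes. Its highest was knockout replicate 2, where that of Fcer2a was wild-type replicate 2.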
